A study of Mus musculus with 2 samples.

Results

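AT2-like cells without an *Lcn2* UMI (unique molecular identifier, a counted transcript) made up 702 of the 23349 cells of 2 single-cell libraries of mouse lung at P14: 519 of 10999 cells of the control mouse and 183 of 12350 cells of the *Gli1 HHIPCKO* mouse. They were chosen by measured values. A cell had 200 to 6000 genes and at most 10% mitochondrial UMIs, a UMI of at least 4 of the 7 AT2 genes *Lamp3*, *Slc34a2*, *Abca3*, *Etv5*, *Cxcl15*, *Hc* and *Napsa*, at most 2 UMIs of the collagen genes *Col1a2* and *Col3a1* together, no UMI of the leukocyte gene *Ptprc*, fewer than 3 of the 4 ciliated cell genes *Foxj1*, *Ccdc153*, *Tmem212* and *Dynlrb2*, and 0 UMIs of *Lcn2*. The 5540 AT2-like cells that met the same rule but had an *Lcn2* UMI (2734 control, 2806 *Gli1 HHIPCKO*) were the comparison cells. Genes of the rule cannot be findings, and the cells are called AT2s here by this rule alone.

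The study asked what loss of *Hhip*, a secreted antagonist of hedgehog ligands, in stromal cells does to the growing lung. The 2 mice shared a *Gli1*-creER driver on 1 allele and carried floxed *Hhip* on both, and 1 was given tamoxifen on each of the first 3 days of life (*Gli1 HHIPCKO*) while the other was given oil (control). At P14 the CD326+ epithelium and the stroma, negative for CD45, CD31 and CD326, were sorted and mixed as 3 parts stroma to 1 part epithelium before capture. *Gli1*-creER acts in *Gli1*-lineage stromal cells, so the AT2s of the *Gli1 HHIPCKO* mouse are neighbours of deleted cells and are not themselves the target. Which part of *Hhip* the floxed allele removes is not given in the sources used here.

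AT2s make, store and secrete pulmonary surfactant, secrete antimicrobial proteins, and act as progenitors of the flat AT1 cells of the alveolus. *Lcn2* encodes lipocalin 2, a secreted protein that withholds iron from bacteria by binding their siderophores, and epithelial cells make more of it when they receive inflammatory signals. A cell without a counted *Lcn2* transcript may make none, or may have been read too shallowly to show it.

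With 1 mouse per group, no difference between the groups has a replicate check. All intervals are 95%, stand in square brackets after a log2 ratio, and carry counting error only. The 2 mice also differed in sex-linked genes: *Xist*, the RNA that silences an X chromosome in females, had 90 UMIs in the *Gli1 HHIPCKO* cells without *Lcn2* and 0 in the control cells without *Lcn2* (log2 ratio at least 6.65), while the Y-linked genes *Ddx3y*, *Eif2s3y*, *Kdm5d* and *Uty* had 26, 41, 18 and 19 UMIs in control and 0 in *Gli1 HHIPCKO*. Sex and treatment therefore cannot be told apart in any comparison of the groups. *Hhip* itself was hardly counted in these cells, with 2 UMIs in *Gli1 HHIPCKO* and 8 in control (4.38 and 5.22 CPM, the UMIs of a gene per 1000000 UMIs). Its log2 ratio was -0.25 (-3.53 to 2.07), too wide to read a direction from. Among stromal cells of the same libraries, 33.1% in *Gli1 HHIPCKO* and 47.6% in control had an *Hhip* UMI, at median depths of 3326.5 and 3123 UMIs, and 24.6% and 40.9% did after thinning to 2000 UMIs.

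The label AT2 was checked against marker genes of AT2s and of 11 other cell types. *Sftpc*, the surfactant protein C gene that the rule did not use, had a UMI in every one of the cells without *Lcn2*, but also in 99.4% (control) and 96.4% (*Gli1 HHIPCKO*) of stromal cells, so the label rests on its level and not on this share. The level was 268470 CPM (control) and 213081 CPM (*Gli1 HHIPCKO*), beside 2042 and 1329 CPM in stromal cells. It was the most abundant gene, with 26.8% of all UMIs of these cells in control and 21.3% in *Gli1 HHIPCKO*. All 7 genes of the rule were counted in 141 control and 47 *Gli1 HHIPCKO* cells without *Lcn2*. These 7 genes chose the cells and cannot support the label. By *Sftpc*, the marker that is independent of the rule, the cells read as AT2s, at more than 100 times the level of the stromal cells.

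Marker genes of other types were low in most of the cells, except for AT1 markers. The summed AT1 markers reached 1752 CPM (control) and 1233 CPM (*Gli1 HHIPCKO*, stromal cells 365 and 264 CPM). Most of it was *Ager* with 1298 and 882 CPM, counted in 82.7% and 68.3% of the cells, and *Pdpn* had no UMI in *Gli1 HHIPCKO*. Stromal cells had 12.9 and 6.73 CPM of *Ager*, and most of their AT1 sum was *Cav1* (289 and 189 CPM). Stromal markers summed to 232 and 326 CPM beside 35124 and 29103 CPM in stromal cells, with *Col1a2* and *Col3a1* limited by the rule. Immune markers summed to 32.6 and 2.19 CPM with no *Tyrobp* UMI in either group and *Ptprc* at 0 by rule, and endothelial markers to 9.13 and 10.9 CPM. Ciliated markers, limited by the rule, summed to 15 and 19.7 CPM, mesothelial markers to 6.52 and 2.19 CPM, and neuroendocrine markers had no UMI. None of these 6 non-AT1 sums came near the AT2 level.

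A few cells stood apart because they carried RNA of a further type. Club cell markers summed to 7432 CPM among control and 532 CPM among *Gli1 HHIPCKO* cells, nearly all of it the club cell secretoglobin *Scgb1a1*, and 3 cells held 87.6% of its UMIs in control and 68.2% in *Gli1 HHIPCKO*. A UMI of *Scgb1a1* was found in 34.7% and 27.3% of these cells and in 32.4% and 24.4% of stromal cells, where its level was 1517 and 132 CPM. Red cell markers summed to 4736 and 26219 CPM (stromal cells 8061 and 10842 CPM), smooth muscle markers to 39.1 and 261 CPM, and pericyte markers to 9.13 and 83.2 CPM. Cells with more than 1% hemoglobin UMIs numbered 5 in each group, and cells with at least 5 UMIs of mural genes numbered 1 in control and 9 in *Gli1 HHIPCKO*. These hemoglobin and mural cells were 6 of 519 control and 14 of 183 *Gli1 HHIPCKO* cells without *Lcn2*, and some may hold RNA of more than 1 cell. Results are given with them. Values without them are given for some genes only, although further calls changed, and the calls kept are counted below. Cells with club cell RNA were not counted among the hemoglobin and mural cells or left out with them. Of 193 barcodes found in both libraries, 5 belonged to control and 2 to *Gli1 HHIPCKO* cells without *Lcn2*, and none was chosen in both.

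Whether a cell shows 0 *Lcn2* UMIs depends on how much *Lcn2* the cell holds and on how deeply it was read. Lipocalin 2 is a secreted defence protein, and AT2s of 1 lung can differ in how much of it they make. Free *Lcn2* RNA in the suspension can add a UMI to any cell, and shallow reading can remove it. The share at 0 is therefore read against depth here.

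Of all AT2-like cells, 16.0% (14.7 to 17.3%) had no *Lcn2* UMI in control and 6.12% (5.29 to 7.04%) in *Gli1 HHIPCKO*. The share was thus higher in control, where the *Lcn2* level over all AT2-like cells was lower (931 CPM, beside 2084 CPM in *Gli1 HHIPCKO*). Stromal cells, set beside them as a level for free RNA, carried an *Lcn2* UMI in 1.46% (1.15 to 1.84%) of cases for control and 3.24% (2.81 to 3.72%) for *Gli1 HHIPCKO*, and whether they make *Lcn2* themselves was not tested.

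The count of 0 depended strongly on depth. Below 1000 UMIs per cell, 83.3% of AT2-like cells in control (75 of 90) and 70.0% in *Gli1 HHIPCKO* (42 of 60) had no *Lcn2* UMI. From 1000 up to 2000 UMIs the shares were 53% (124 of 234) and 43.3% (55 of 127), and from 2000 up to 4000 they were 22.5% (166 of 739) and 14.1% (37 of 262). From 4000 up to 8000 UMIs they were 7.51% (6.39 to 8.74%, 151 of 2012) and 2.24% (1.67 to 2.96%, 49 of 2183). At 8000 UMIs or more, 3 of 178 control cells were at 0 (1.69%). None of 357 cells was at 0 in *Gli1 HHIPCKO*, a count that allows a share of up to 0.840% (3 counts of the total). In both libraries the share was smaller at every deeper step, and at each step it was higher in control than in *Gli1 HHIPCKO*.

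With every cell thinned to 2000 UMIs, 27.5% (25.8 to 29.1%, 804 of 2929) of control and 13.3% (12.0 to 14.6%, 372 of 2802) of *Gli1 HHIPCKO* AT2-like cells were at 0. This left out 324 control and 187 *Gli1 HHIPCKO* cells below 2000 UMIs, 199 and 97 of which had no *Lcn2* UMI as counted. The cells without *Lcn2* thus include shallow cells, in which 0 says little, and well-read cells in which few *Lcn2* transcripts were caught. Which shallow cells hold little *Lcn2* cannot be told. Comparisons within 4000 up to 8000 UMIs, chosen after the data were seen, are given below to hold depth closer.

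**Figure D1:**
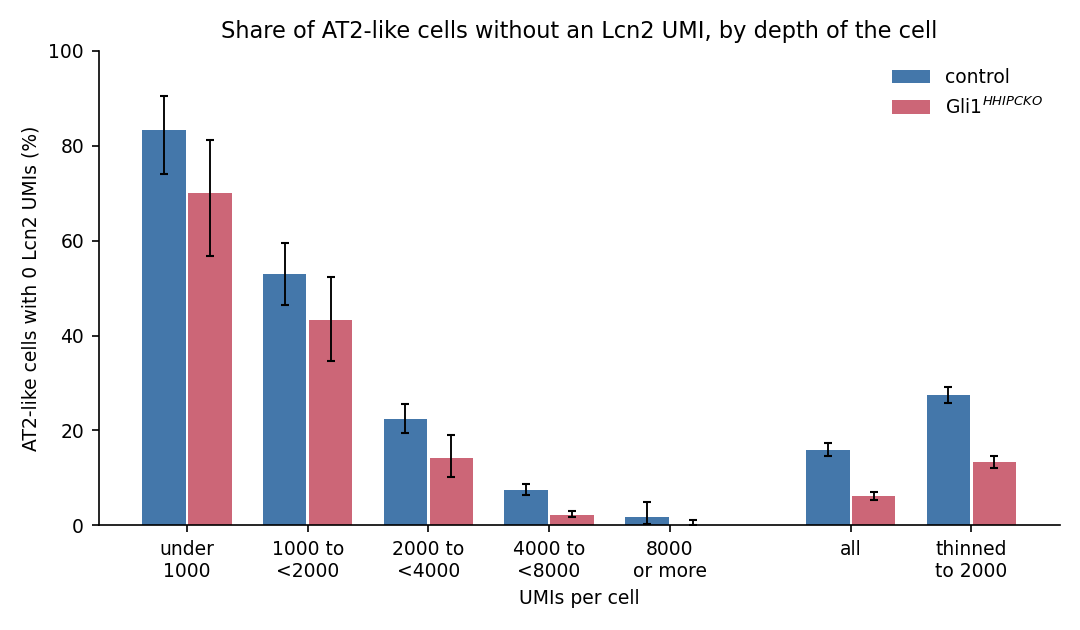
Share of AT2-like cells with 0 *Lcn2* UMIs by UMIs per cell, over all AT2-like cells, and after thinning of each cell to 2000 UMIs. Bars show exact binomial 95% intervals, counting error only, 1 mouse per group.

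Cells just outside the rule were set beside those just inside it. Cells with exactly 1 *Lcn2* UMI (509 control, 182 *Gli1 HHIPCKO*) had median depths of 4057 and 4520 UMIs, and surfactant protein genes made up a median 33.2% and 29.5% of their UMIs. Among cells at 0 *Lcn2*, those with exactly 4 of the 7 AT2 genes (88 and 41 cells) had median depths of 1029 and 860 UMIs and surfactant shares of 10.8% and 9.17%. Those just outside the rule with exactly 3 of the 7 (69 and 26 cells) had 950 and 978.5 UMIs and 8.16% and 7.44%. The border set by the number of AT2 genes thus cuts through shallow cells of low surfactant share, on both of its sides.

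The chosen cells were shallow and varied widely. Their median depth was 2837 UMIs in control (quartiles 1332.5 and 4218, range 507 to 13498) and 1662 UMIs in *Gli1 HHIPCKO* (quartiles 1015 and 4138, range 526 to 7644), beside 4952.5 and 5774 UMIs in cells with *Lcn2*. Median genes per cell were 1024 and 765, beside 1548 and 1760. The *Gli1 HHIPCKO* cells without *Lcn2* were thus the shallowest group of the 4, although the *Gli1 HHIPCKO* cells with *Lcn2* were the deepest.

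Surfactant and mitochondrial shares followed depth. The 4 surfactant protein genes made up a median 28.3% of UMIs in control and 16.5% in *Gli1 HHIPCKO* cells without *Lcn2*, beside 34.2% and 30.9% in cells with *Lcn2* and 0.194% and 0.121% in stromal cells. Below 1000 UMIs the medians were 10.3% in control and 8.78% in *Gli1 HHIPCKO*, from 1000 up to 2000 UMIs 14.4% and 12.5%, from 2000 up to 4000 UMIs 32.2% and 24.9%, and from 4000 up to 8000 UMIs 33.5% and 31.1%. In cells with *Lcn2* of the same 4 depths they were 11.9, 22.3, 33.9 and 34.6% in control and 10.4, 18.8, 30.3 and 31.1% in *Gli1 HHIPCKO*. At the deepest of these 4 steps, cells without and with *Lcn2* had nearly the same surfactant share.

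Mitochondrial UMIs moved the other way. They made up a median 1.10% of UMIs for control and 2.66% for *Gli1 HHIPCKO* cells without *Lcn2*, beside 0.736% and 0.811% in cells with *Lcn2*. It was 4.83% and 4.91% below 1000 UMIs and 0.715% and 0.727% from 4000 up to 8000 UMIs. No UMI of any of the epithelial genes *Epcam*, *Cdh1*, *Cldn3*, *Cldn7* and *Cldn18* was counted in 12.3% (control) and 20.2% (*Gli1 HHIPCKO*) of cells without *Lcn2*. The shares were 0.951% and 0.784% with *Lcn2*, and 1.32% and 2.04% without *Lcn2* from 4000 up to 8000 UMIs. Shallow members with low surfactant and high mitochondrial shares thus sit beside deep members that look like the other AT2s. Whether the shallow ones are damaged AT2s, smaller AT2s or droplets with free RNA was not tested.

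Ribosomal protein genes (82 genes) held 7.05% of the UMIs of cells without *Lcn2* in control and 8.17% in *Gli1 HHIPCKO*, beside 6.92% and 8.83% in cells with *Lcn2*. Few of the cells had cell cycle UMIs. A cell with a UMI of at least 2 of 6 cell cycle genes was found 4 times among the 519 control cells without *Lcn2* (0.771% [0.210, 1.96%]) and never among the 183 of *Gli1 HHIPCKO*, a count that leaves room for at most 1.64% of cells with such UMIs (3 counts of the total). At a median of 1662 UMIs per cell this does not limit the share of cells that cycle. In cells with *Lcn2* the shares were 0.914% and 0.392%, and in stromal cells 0.970% and 0.328%.

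**Figure D2:**
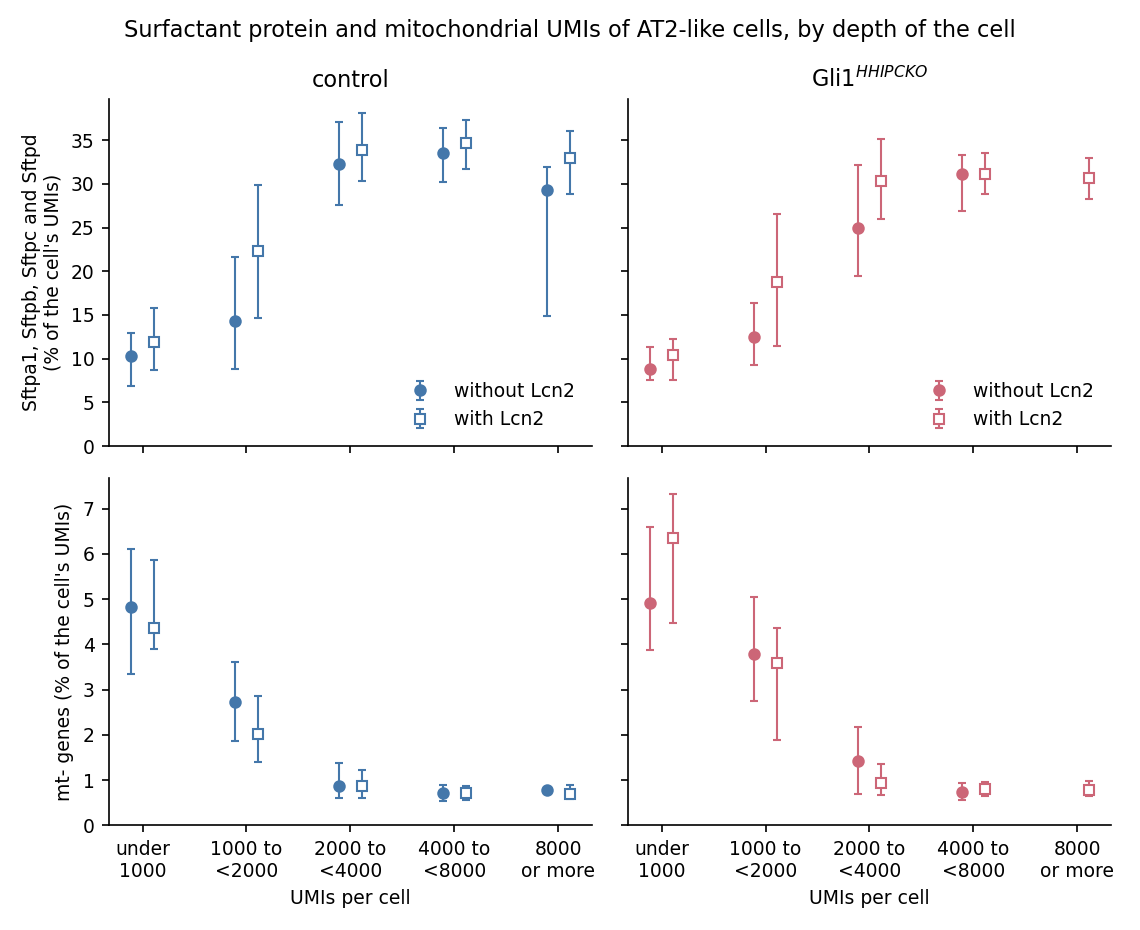
Share of each cell's UMIs from the 4 surfactant protein genes and from mitochondrially encoded genes, by UMIs per cell, in AT2-like cells without and with *Lcn2*. Points are medians over cells and bars reach from the lower to the upper quartile.

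AT2s receive signals from the stromal cells next to them, and the study deleted *Hhip* in such cells. A comparison of *Gli1 HHIPCKO* with control cells without *Lcn2* asks how AT2s of the *Lcn2*-poor end differ between the 2 mice. Stress and hormone responses, the cell cycle brake p21, surfactant and defence genes each have their own list. Cells with *Lcn2* are shown beside them; both come from the same 2 libraries and are no independent check. Differences in sex, handling and sorting between the 2 mice enter both.

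Of 3297 genes ranked between *Gli1 HHIPCKO* and control cells without *Lcn2*, 91 were at least 2-fold higher (2.76%) and 43 at least 2-fold lower (1.3%). The median log2 ratio of all ranked genes was 0.07, and -0.03 when the surfactant protein genes were left out of the total, because *Sftpc* took a smaller part of the UMIs in *Gli1 HHIPCKO*. With that total, 66 genes were called higher and 65 lower, so the excess of higher calls depends on the total used. The 43 lower genes had a median of 9 UMIs in *Gli1 HHIPCKO*, and 23 of them fewer than 10, so many of these calls rest on very few counts. A gene could be ranked through the group where it is high alone, which favours such calls in both directions. Among cells of at least 2000 UMIs, 37 of the 91 and 29 of the 43 were called again, and among cells from 4000 up to 8000 UMIs, 17 and 7 were. With cells thinned before selection, 13 and 3 were. Without the hemoglobin and mural cells, 64 and 36 were. A call that ended within 4000 up to 8000 UMIs was not always a smaller ratio. *Lrg1* (2.75) and *Cd320* (-2.65) were not ranked there, while *Per1* was ranked at 0.69.

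Several of the largest ratios changed when the hemoglobin and mural cells were left out. *Gucy1a1*, a guanylate cyclase subunit of mural cells, had 243 CPM in *Gli1 HHIPCKO* and 11.1 CPM in control (log2 ratio 4.45 [3.71, 5.28]), and 1.72 without the cells with RNA of another type. *Sparcl1*, a matrix glycoprotein, had 169 and 18.9 CPM (3.16 [2.52, 3.83]), and 1.10 without them. Both ratios were still over 2-fold, although the mural cells had been chosen by mural genes, *Gucy1a1* included. Both genes were ranked through *Gli1 HHIPCKO* alone, which favours such ratios. In *Gli1 HHIPCKO* 3 cells held 54.1% and 41.6% of their UMIs, and without the 3 highest cells of each group the ratios were 4.44 and 2.94. The beta globins *Hbb-bs* (19361 and 3529 CPM, 2.46) and *Hbb-bt* (3937 and 752 CPM, 2.39) came out at 0.24 and -0.78 without the hemoglobin and mural cells, and at 3.78 and 3.16 without the 3 highest cells of each group. *Scgb1a1* was low in *Gli1 HHIPCKO*, with 510 CPM beside 7173 CPM in control (-3.81 [-4.01, -3.63]); without the 3 highest cells of each group it was at -2.46, and in cells with *Lcn2* at -3.48. Stromal cells had 132 CPM of *Scgb1a1* in *Gli1 HHIPCKO* and 1517 CPM in control, so the lower level was not particular to AT2s. Whether the difference reflects club cell RNA in suspension or cells with both programmes was not tested.

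Immediate early genes are switched on within minutes of a stimulus, tissue dissociation included. All 15 ranked genes of this list were above 0 in *Gli1 HHIPCKO* over control, with a median log2 ratio of 0.58 beside 0.07 for all ranked genes. Of the 15, 2 were called higher, beside 2.76% of all ranked genes. *Rgcc*, a regulator of the cell cycle, had 952 CPM in *Gli1 HHIPCKO* and 227 CPM in control (2.07 [1.86, 2.28]), and was high in the cells with *Lcn2* too (1076 and 268 CPM, 2.01). A UMI of *Rgcc* was found in 61.7% of *Gli1 HHIPCKO* and 36.8% of control cells without *Lcn2* at median depths of 1662 and 2837 UMIs (77.9% and 35.9% after thinning, stromal cells 9.19% and 4.17%). *Atf3*, a stress-induced transcription factor, had 683 and 299 CPM (1.19 [0.98, 1.40]), beside 1.18 with *Lcn2*. *Fos* (1325 and 869 CPM, 0.61), *Junb* (681 and 460 CPM, 0.56), *Jun* (1482 and 1060 CPM, 0.48) and *Egr1* (315 and 206 CPM, 0.61) were higher by less than 2-fold. Within 4000 up to 8000 UMIs *Egr1* was called too (1.02 [0.62, 1.41]). The ranked genes thus lay on the same side, 13 of 15 by less than 2-fold. A response in the lung cannot be told apart here from a difference in dissociation between the 2 preparations.

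Glucocorticoids mature the surfactant system of the perinatal lung, and metallothioneins bind zinc and copper. Of the 7 ranked genes of this list 4 were called higher in *Gli1 HHIPCKO*, and the median was 1.01. Among all ranked genes 2.76% were called higher, and the median was 0.07. *Mt1*, a metallothionein, had 626 CPM in *Gli1 HHIPCKO* and 220 CPM in control (1.51 [1.27, 1.74]), beside 1.58 in cells with *Lcn2*. *Zbtb16*, a transcription factor, had 67.9 and 22.2 CPM (1.61 [0.86, 2.36]), but was ranked through *Gli1 HHIPCKO* alone and came to 0.82 within 4000 up to 8000 UMIs. The clock gene *Per1* had 204 and 82.2 CPM (1.31 [0.91, 1.71]), but 0.69 at that depth. *Errfi1*, an inhibitor of the EGF receptor, had 1568 and 779 CPM (1.01 [0.87, 1.14]) and dropped under 2-fold at 0.76 among cells of at least 2000 UMIs. *Klf9* was just under 2-fold (335 and 170 CPM, 0.98) and called within 4000 up to 8000 UMIs (1.15 [0.74, 1.55]), and *Tsc22d3*, another glucocorticoid-induced gene, had an interval on both sides of 0 (195 and 211 CPM, -0.12 [-0.47, 0.23]). Of the 4 called genes only *Mt1* was also called within 4000 up to 8000 UMIs, at 2.03. *Errfi1* stood just under 2-fold there (0.98 [0.76, 1.21]).

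Linker histones fold nucleosomes into compact chromatin, and their polyadenylated transcripts are found in cells that have left the cycle. In the histone list 3 of 6 ranked genes were higher in *Gli1 HHIPCKO* and the median was 0.97, beside 2.76% and 0.07 for all ranked genes. *Hist1h1c* had 76.6 CPM in *Gli1 HHIPCKO* and 14.3 CPM in control (2.42 [1.61, 3.26]), *Hist1h1e* 585 and 165 CPM (1.82 [1.57, 2.08]), and *H1f0* 412 and 177 CPM (1.21 [0.94, 1.49]). *Hist1h1e* and *H1f0* were thus high in *Gli1 HHIPCKO*, and so was *Hist1h1c*, which was ranked through *Gli1 HHIPCKO* alone and rests on 35 and 22 UMIs. The core histone variant *H2afz* was lower by less than 2-fold (245 and 328 CPM, -0.42 [-0.73, -0.12]). In cells with *Lcn2* the 3 linker histones were at 1.93, 1.30 and 0.97.

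The p53 target *Cdkn1a* encodes p21, which stops the cell cycle and marks senescent cells among others. *Cdkn1a* had 210 CPM in *Gli1 HHIPCKO* and 67.2 CPM in control (1.65 [1.23, 2.06]), and 198 and 69.9 CPM in cells with *Lcn2* (1.5 [1.40, 1.61]). It was the only one of 5 ranked genes of the senescence and p53 list called higher, and none was lower. The median was 0.64, beside a median of 0.07 and 2.76% called higher among all ranked genes. A *Cdkn1a* UMI was found in 35.5% of *Gli1 HHIPCKO* and 15% of control cells without *Lcn2* (32.6% and 9.69% after thinning), in stromal cells in 35.1% and 21.7% (27.4% and 15.3% after thinning). *Cdkn1b* (98.5 and 58.7 CPM, 0.75 [0.20, 1.28]) and *Ypel3* (169 and 108 CPM, 0.64 [0.23, 1.04]) were higher by less than 2-fold. *B2m* (65.7 and 44.4 CPM, 0.57 [-0.10, 1.21]) and the p53 target *Bax* (56.9 and 58.0 CPM, -0.03 [-0.72, 0.62]) had intervals on both sides of 0, and the p53 targets *Bbc3* and *Mdm2* were not ranked. *Sesn2*, another p53 target, was not ranked without *Lcn2* (0.92 [-0.18, 1.97]) but called higher in cells with *Lcn2* (1.14). Whether p53 targets other than *Cdkn1a* differ in the cells without *Lcn2* cannot be told from these counts.

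Proteins that fold badly in the endoplasmic reticulum induce chaperones and degradation factors. In this list 1 of 12 ranked genes was higher, 1 lower, and the median was -0.19. Among all ranked genes 2.76% were higher, 1.3% lower, and the median was 0.07. *Herpud1*, a factor of degradation at the endoplasmic reticulum, had 574 CPM in *Gli1 HHIPCKO* and 200 CPM in control (1.52 [1.28, 1.76]), beside 1.41 in cells with *Lcn2*. The chaperone *Hspa5* had 177 and 194 CPM (-0.13 [-0.50, 0.23]). The disulfide isomerase *Pdia4* had 21.9 and 48.9 CPM from 10 and 75 UMIs (-1.16 [-2.28, -0.20]). Its ratio turned to 0.09 when cells were thinned before selection. In the narrower depth range used above it was at -2.69 [-5.78, -0.75], from 2 and 41 UMIs, and was not ranked. There the chaperone *Calr* of this list was called lower (8 and 52 UMIs, -1.03 [-2.32, 0.05]), and *Herpud1* was again called higher (1.76 [1.43, 2.10]). *Herpud1* was thus the only gene of its list called higher. Heat shock genes had no call among 6 ranked and a median of 0.00, with 3 above 0 and 3 below. *Hspa8* of this list was lower by less than 2-fold without the 3 highest cells of each group (230 and 1323 UMIs, -0.75 [-0.96, -0.55]).

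Further called genes were high in *Gli1 HHIPCKO* outside the lists. The kinase *Pim3* had 197 CPM in *Gli1 HHIPCKO* and 50.2 CPM in control (1.97 [1.52, 2.43]), the flavin monooxygenase *Fmo2* 74.4 and 22.2 CPM (1.75 [1.02, 2.48]), the glutathione transferase *Gstm1* 56.9 and 17.6 CPM (1.69 [0.86, 2.52]), and the clock repressor *Nr1d2* 67.9 and 22.2 CPM (1.61 [0.86, 2.36]). In cells with *Lcn2* these genes were at 1.34, 1.40, 1.23 and 0.98. *Lrg1*, a secreted glycoprotein, had 61.3 and 15.7 CPM (1.97 [1.13, 2.82]), beside 0.89 with *Lcn2*. All 5 were above 0 in both kinds of cell, and all but *Pim3* were ranked through *Gli1 HHIPCKO* alone in the cells without *Lcn2*.

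On the low side, the chitinase *Chia1* had 56.9 CPM in *Gli1 HHIPCKO* and 198 CPM in control (-1.80 [-2.43, -1.22]), beside -1.04 in cells with *Lcn2*, and the microtubule regulator *Stmn1* 8 and 77 UMIs (-1.52 [-2.78, -0.47]), beside -1.36. *Chia1* was thus low in both kinds of cell, and so was *Stmn1*, which without *Lcn2* was ranked through control alone. A further 5 low genes rested on few UMIs and were not called in cells with *Lcn2*. The vitamin B12 receptor *Cd320* had 4 UMIs in *Gli1 HHIPCKO* and 59 in control (-2.14 [-4.06, -0.70]) and the splicing factor *Lsm4* 9 and 90 UMIs (-1.57 [-2.75, -0.59]), beside -0.17 and -0.54 with *Lcn2*. The mitochondrial ribosomal protein genes *Mrps12* (16 and 143 UMIs, -1.41 [-2.26, -0.66]), *Mrpl36* (9 and 84 UMIs, -1.48 [-2.65, -0.48]) and *Mrps23* (7 and 61 UMIs, -1.38 [-2.75, -0.25]) were at -0.22, -0.06 and -0.13 with *Lcn2*. All 5 were ranked through control alone, and the difference between cells without and with *Lcn2* was not tested.

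No surfactant protein gene was 2-fold apart between the groups. Surfactant proteins A, B, C and D lower surface tension or bind microbes. *Sftpa1* had 18665 CPM in *Gli1 HHIPCKO* and 15560 CPM in control (0.26), *Sftpb* 6404 and 5570 CPM (0.20), *Sftpd* 2041 and 1756 CPM (0.22) and *Sftpc* 213081 and 268470 CPM (-0.33). The 4 genes had no call and a median of 0.21, against which *Sftpc* stood alone below 0. In cells with *Lcn2* they were at 0.36, 0.10, 0.24 and -0.18.

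No gene was called in the lists of lamellar body and surfactant processing (6 ranked, median 0.02), lipid and sterol synthesis (18, -0.14), AT2 transcription factors (7, 0.19), AT2 defence secretory genes (7, 0.11) and epithelial adhesion and identity (8, 0.10). Within 4000 up to 8000 UMIs *Cdh1* of the last of these lists was called higher (1.02 [0.36, 1.65]). Lysozyme genes were even, with 3921 and 3780 CPM for *Lyz1* (0.05 [-0.02, 0.13]) and 12837 and 12812 CPM for *Lyz2* (0.00 [-0.04, 0.04]). The chitinase-like *Chil1* had 1351 and 1066 CPM (0.34 [0.21, 0.48]). In cells with *Lcn2*, *Lyz1*, *Lyz2* and *Chil1* were at 0.38, 0.19 and 0.67, and the antiprotease *Slpi* at 1.37 beside 0.93 (0.35 to 1.5) without *Lcn2*. *Slpi* was called within 4000 up to 8000 UMIs (1.22 [0.49, 1.93]). Whether these ratios differ between cells without and with *Lcn2* was not tested.

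Progress to AT1 fate can be seen from AT1 genes and from keratins of the transitional state. AT1 genes had no call (6 ranked, median -0.09), with *Ager* at 882 CPM in *Gli1 HHIPCKO* and 1298 CPM in control (-0.56 [-0.72, -0.40]) and -0.64 in cells with *Lcn2*. *Ager* was thus lower in both kinds of cell, by less than 2-fold. Transitional epithelial genes had no call (5, -0.45). *Areg* of this list, also counted among the ligands of AT2s to their neighbours, was called lower in cells with *Lcn2* (-1.44). In cells without *Lcn2*, *Areg* was at -0.66. There it was at -1.74 [-2.73, -0.89] without the 3 highest cells of each group (12 and 138 UMIs). A cell cycle gene was ranked only once (-0.04).

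Immune and stromal signalling lists had no call either: NF-kB and STAT3 pathway (9 ranked, median 0.44), MHC class I presentation (5, -0.11), MHC class II (6, 0.05), IGF pathway (3, -0.07), ligands of AT2s to their neighbours (5, 0.11) and receptors for stromal signals (8, 0.26). In the first of these, *Nfkbia*, the inhibitor of NF-kB, had 232 CPM in *Gli1 HHIPCKO* and 122 CPM in control (0.93 [0.57, 1.28]), and 3 cells held 35.8% of its *Gli1 HHIPCKO* UMIs. *Socs3*, the feedback inhibitor of STAT3, had 87.6 and 44.4 CPM (0.98 [0.38, 1.57]). Within 4000 up to 8000 UMIs both were called higher, *Nfkbia* at 1.07 [0.59, 1.54] and *Socs3* at 1.32 [0.52, 2.11]. No hedgehog pathway gene was ranked; together they had 67.9 CPM in *Gli1 HHIPCKO* and 69.8 CPM in control. Hedgehog pathway transcripts were therefore hardly counted in these AT2s, in either mouse.

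**Figure D3:**
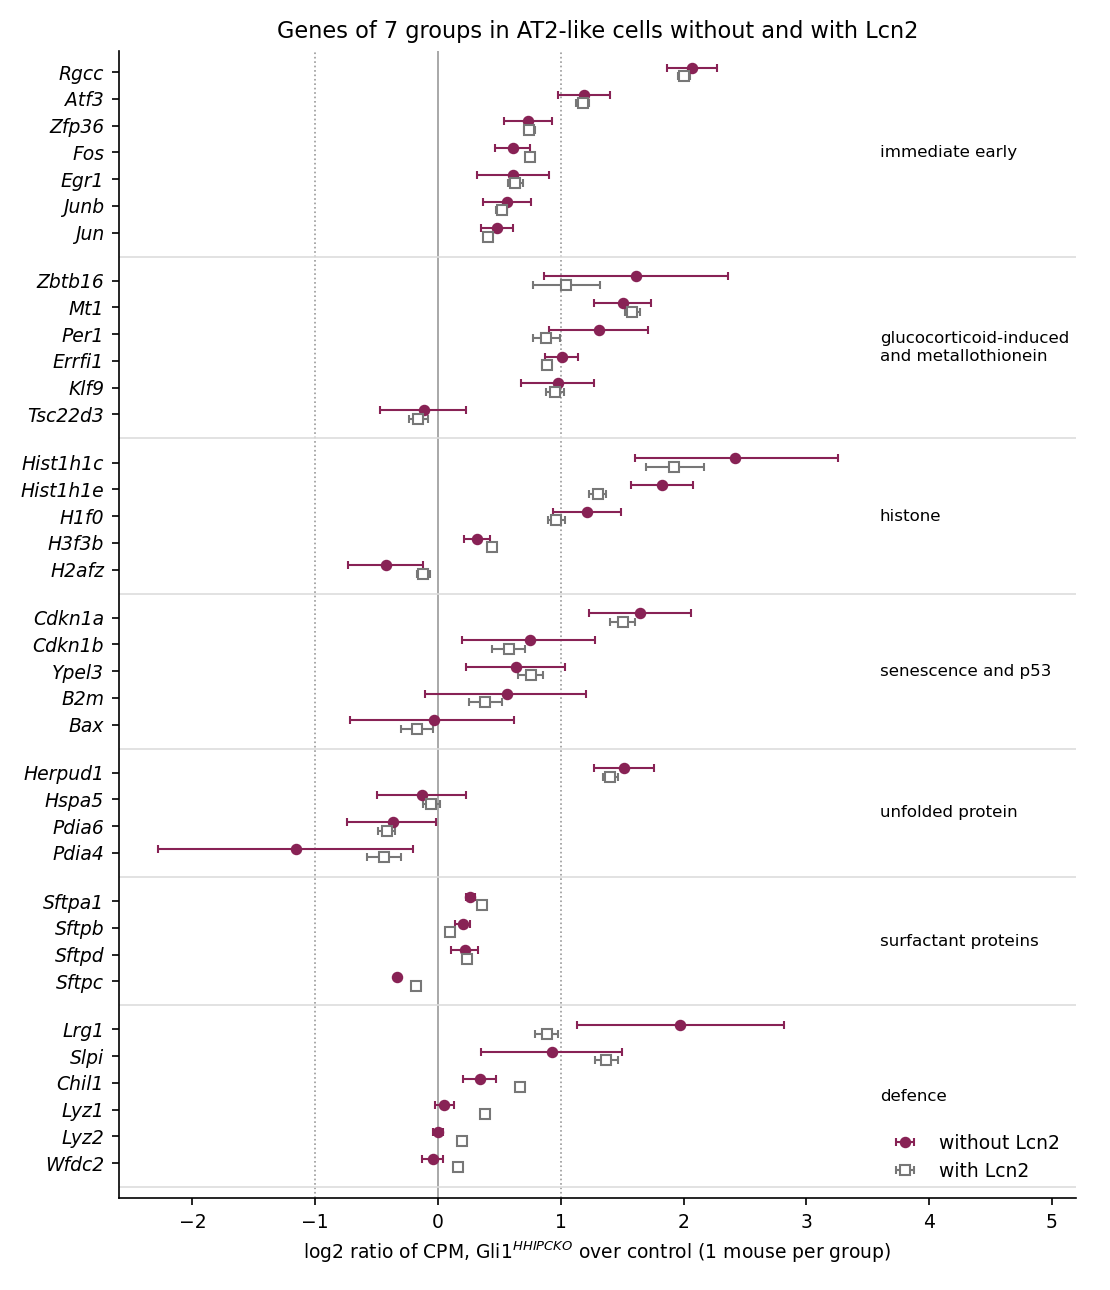
Log2 ratios of CPM of *Gli1 HHIPCKO* over control for genes of 7 groups in AT2-like cells without *Lcn2* (filled) and with *Lcn2* (open). Bars are exact binomial 95% intervals, counting error only, and dotted lines mark 2-fold.

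AT2s without and with *Lcn2* come from the same mouse and the same library, so sex and handling are shared. A cell poor in *Lcn2* may be poor in other defence proteins, or nearer to the AT1 fate. Since the rule used *Lcn2*, and since cells at 0 are shallower, part of any difference follows from the choice of cells. Genes that move with depth rather than with *Lcn2* should lose their difference among cells of similar depth.

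In control, 5 of 4442 ranked genes were at least 2-fold higher in cells without *Lcn2* (0.113%) and 2 were lower (0.045%); read nothing from it, because the rule used the contrast. In *Gli1 HHIPCKO*, 122 of 5033 were higher (2.42%) and 82 lower (1.63%); read nothing from it, for the same reason. The medians were 0.05 and 0.09, and -0.04 in both when the surfactant protein genes were left out of the total. With that total, 61 genes were called higher and 122 lower in *Gli1 HHIPCKO*, which reversed the balance of the 2 directions. The 82 lower genes in *Gli1 HHIPCKO* had a median of 5 UMIs in cells without *Lcn2*, and 69 of them fewer than 10. The 5 higher genes of control were all among the 122 (100% of the control list, 4.10% of the other): *Adamts10*, *Firre*, *Gm26917*, *Gm47283* and *Scgb1a1*. The lists of lower genes shared *Lrg1* (50% of the control list, 1.22% of the other). Overlap of the 2 lists was not tested. With cells thinned before selection, 1 gene was higher and 1 lower in each mouse, 1 of the 122 and 1 of the 82 among them in *Gli1 HHIPCKO*. With up to 1 *Lcn2* UMI allowed in *Gli1 HHIPCKO*, 22 genes were higher and 5 lower, 16 and 3 of them among the same calls. Among *Gli1 HHIPCKO* cells of at least 2000 UMIs, 38 of the 122 and 60 of the 82 were called again, and among those from 4000 up to 8000 UMIs, 21 and 43 were. Without the hemoglobin and mural cells, 87 and 54 were, and in control 5 of 5 and 2 of 2. How many calls last thus depends on the alternative, and each of these alternatives also changed which cells were compared.

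*Lrg1*, an acute-phase glycoprotein like lipocalin 2, was low together with *Lcn2* in both mice. In control it had 15.7 CPM without and 98.2 CPM with *Lcn2* (-2.65 [-3.30, -2.07]), and in *Gli1 HHIPCKO* 61.3 and 181 CPM (-1.57 [-2.16, -1.03]). Within 4000 up to 8000 UMIs the values were -3.09 and -1.27. An *Lrg1* UMI was found in 3.66% of control cells without and 20.6% with *Lcn2* (3.75% and 12.5% after thinning), and in 12.0% and 42.6% in *Gli1 HHIPCKO* (6.98% and 22.6% after thinning), at median depths of 2837, 4952.5, 1662 and 5774 UMIs. Stromal cells had it in 0.186% and 0.36%. The direction was the same in that depth range. In control the gene was ranked through the cells with *Lcn2* alone, and how much of the difference follows from choosing cells on *Lcn2* was not tested.

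AT2 defence secretory genes had medians of -0.57 in control and -0.91 in *Gli1 HHIPCKO*. Over cells of all depths, all 10 ranked genes of this list were below 0 in both mice. None was called in control and 5 were lower in *Gli1 HHIPCKO*, beside 0.045% and 1.63% of all ranked genes. Of these 5, *C3* and *Retnla* were ranked in *Gli1 HHIPCKO* through the cells with *Lcn2* alone. *Chil1* had 1066 CPM without and 1771 CPM with *Lcn2* in control (-0.73 [-0.81, -0.66]) and 1351 and 2813 CPM in *Gli1 HHIPCKO* (-1.06 [-1.18, -0.94]). *Lyz1* had 3780 and 6041 CPM (-0.68 [-0.71, -0.64]), then 3921 and 7860 CPM (-1.0 [-1.07, -0.94]). *Lyz2* had 12812 and 19720 CPM (-0.62 [-0.64, -0.60]), then 12837 and 22561 CPM (-0.81 [-0.85, -0.78]). The 3 transcripts were thus lower without *Lcn2* in both mice, in control by less than 2-fold.

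*Slpi* had 48.3 CPM without and 81.4 CPM with *Lcn2* in control (-0.75 [-1.11, -0.41]) and 92.0 and 211 CPM in *Gli1 HHIPCKO* (-1.20 [-1.67, -0.76]), and the complement gene *C3* 36.5 and 52.9 CPM (-0.53 [-0.95, -0.14]), then 35.0 and 72.3 CPM (-1.05 [-1.86, -0.34]). *Retnla*, a resistin-like cytokine, had 2 UMIs without *Lcn2* in *Gli1 HHIPCKO* and 3495 with it (4.38 and 207 CPM, -5.56 [-8.61, -3.71]). In control its 75 UMIs without *Lcn2* came to 76.0% from 3 cells (48.9 and 70.6 CPM, -0.53 [-0.89, -0.19]). Without the 3 highest cells of each group, *Retnla* in control had 11.9 and 55.3 CPM (-2.22 [-2.98, -1.55]). In both mice the gene was ranked through the cells with *Lcn2* alone, and in control its ratio was under 2-fold until those cells had been removed. Within 4000 up to 8000 UMIs the calls of *Lyz1* (-0.75), *Chil1* (-0.94) and *Slpi* (-0.76) in *Gli1 HHIPCKO* ended, with the direction kept. In control the direction of *Retnla* turned in that depth range.

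Cells of the same depth range were also arranged by their *Lcn2* UMIs. Those from 4000 up to 8000 UMIs were split into 0, 1, 2 to 3, 4 to 9 and 10 or more *Lcn2* UMIs, and their median depth still went from 4914 to 5966 UMIs in control and from 4609 to 6144 UMIs in *Gli1 HHIPCKO*. *Lrg1* went from 11.8 CPM (5.37 to 22.3) through 25.4, 48.7 and 107 to 212 CPM (191 to 234) in control, and from 78.8 CPM (47.4 to 123) through 63.5, 66.1 and 127 to 293 CPM (279 to 308) in *Gli1 HHIPCKO*. *Chil1* went from 1157 to 2616 CPM in control and from 1526 to 3828 CPM in *Gli1 HHIPCKO*, and *Lyz2* from 14195 to 24660 CPM and from 14987 to 24527 CPM, each higher at every step. The 0 class thus had the lowest value for *Chil1* and *Lyz2* in both mice and for *Lrg1* in control. In *Gli1 HHIPCKO* the 3 lowest classes had overlapping *Lrg1* intervals. These classes were formed on *Lcn2*, which the rule used, so no support is drawn from their order. How much of the order follows from that choice or from depth was not tested. *Lyz1* had 4605, 5250, 5137, 6025 and 7821 CPM in control and 4808, 5366, 5895, 7634 and 9418 CPM in *Gli1 HHIPCKO*. *Slpi* had 53.5, 67.8, 64.0, 79.7 and 120 CPM, then 124, 95.3, 105, 137 and 317 CPM. *Retnla* had 74.4, 41.6, 35.0, 79.9 and 91.0 CPM, then 4.15, 28.2, 45.9, 43.7 and 416 CPM. All 3 had their highest value at the top in both mice, and their lowest at 0 except for *Slpi* in *Gli1 HHIPCKO* and *Retnla* in control.

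*Sftpc* changed little along the same steps. *Sftpc* lay between 296329 CPM at 0 and 318113 CPM at 10 or more *Lcn2* UMIs in control, and at 259541 and 274185 CPM in *Gli1 HHIPCKO*. Of the genes called between the mice, *Cdkn1a* had 54.8 CPM at 0 and 67.5 CPM at the top in control, and 187 and 194 CPM in *Gli1 HHIPCKO*. *Rgcc* had 252 and 259 CPM, then 1157 and 1044 CPM, and *Herpud1* 193 and 211 CPM, then 655 and 539 CPM. *Mt1* had 208 and 198 CPM, then 850 and 612 CPM. *Cdkn1a* thus had overlapping intervals at both ends in each mouse, *Mt1* was lower at each step in *Gli1 HHIPCKO*, and *Rgcc* and *Herpud1* had their lowest value at the top there. At both ends all 4 were higher in *Gli1 HHIPCKO*. *Ager* had 1383 CPM at 0 and 1045 CPM at the top in control and 888 and 696 CPM in *Gli1 HHIPCKO*, and *Hopx*, an AT1 transcription cofactor, 99.2 and 37.6 CPM, then 62.2 and 41.8 CPM. These 2 genes were lower at the top than at 0, with overlapping intervals for *Hopx* in *Gli1 HHIPCKO*. The highest *Hopx* value was not at 0: it was 124 CPM at 1 *Lcn2* UMI in control and 81.8 CPM at 2 to 3 in *Gli1 HHIPCKO*.

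**Figure D4:**
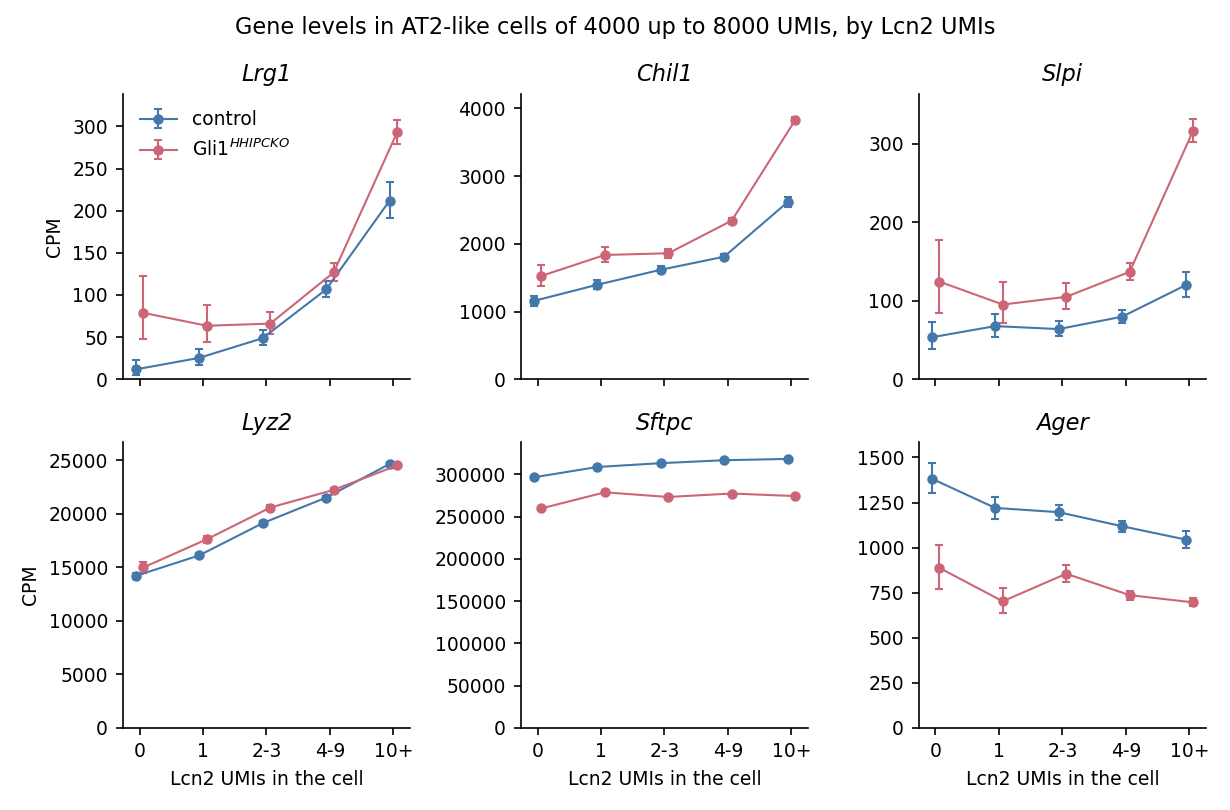
CPM of 6 genes in AT2-like cells from 4000 up to 8000 UMIs, arranged by the number of *Lcn2* UMIs in the cell, in both libraries. Bars are exact Poisson 95% intervals, counting error only.

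In the AT1 list no gene of 6 ranked was called in control and 1 in *Gli1 HHIPCKO*. The medians were 0.36 in control and 0.37 in *Gli1 HHIPCKO*, beside 0.05 and 0.09 for all ranked genes. *Ager* had 1298 CPM without and 1120 CPM with *Lcn2* in control (0.21 [0.15, 0.28]) and 882 and 719 CPM in *Gli1 HHIPCKO* (0.29 [0.15, 0.44]). *Hopx* had 101 and 69.8 CPM (0.53 [0.28, 0.78]), then 103 and 59.6 CPM (0.79 [0.33, 1.21]). The basement membrane collagen *Col4a3* had 32.6 and 23 CPM (0.51 [0.05, 0.94]), then 56.9 and 24.8 CPM (1.20 [0.57, 1.77]), and 0.84 in *Gli1 HHIPCKO* within 4000 up to 8000 UMIs. These 3 transcripts were higher without *Lcn2*, by less than 2-fold but for that call, which ended in that depth range. In that range *Hopx* in *Gli1 HHIPCKO* had 62.2 CPM at 0 *Lcn2* UMIs. It had 72.3, 81.8, 65.0 and 41.8 CPM at 1, 2 to 3, 4 to 9 and 10 or more, so the 0 class was not the highest there. An *Ager* UMI was found in 82.7% of control cells without and 96.6% with *Lcn2* (86.9% and 86.5% after thinning), and in 68.3% and 93.9% in *Gli1 HHIPCKO* (68.6% and 72.4% after thinning, stromal cells 3.59% and 2.20%), so the share of cells did not show the difference in level.

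No MHC class II gene was 2-fold apart between cells without and with *Lcn2*. MHC class II genes had medians of -0.30 in control and -0.29 in *Gli1 HHIPCKO*, with all 6 ranked genes below 0 in both. *Cd74*, the invariant chain, had 5265 CPM without and 6423 CPM with *Lcn2* in control (-0.29 [-0.32, -0.25]) and 4876 and 6231 CPM in *Gli1 HHIPCKO* (-0.35 [-0.41, -0.29]). MHC class I genes had medians of -0.04 and -0.43 over 6 ranked genes, 2 of them above 0 in control, with 1 call: the immunoproteasome subunit *Psmb8* in *Gli1 HHIPCKO*, from 8 UMIs without *Lcn2* (17.5 and 41.6 CPM, -1.25 [-2.46, -0.26]), which came out at -0.47 within 4000 up to 8000 UMIs and at 0.05 when cells were thinned before selection. *Cd74* was thus slightly low together with *Lcn2* in both mice. Within 4000 up to 8000 UMIs, *Cd74* at 0, 1, 2 to 3, 4 to 9 and 10 or more *Lcn2* UMIs had 6006, 6329, 6433, 6646 and 7390 CPM in control. In *Gli1 HHIPCKO* these were 5849, 5863, 6304, 6365 and 6485 CPM. How much of the ratio over all depths goes with depth was not tested.

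The remaining lists are given as medians without over with *Lcn2*, control first. Surfactant proteins were at -0.23 and -0.31, with no call. Lamellar body and surfactant processing genes were at 0.04 and -0.05, lipid and sterol synthesis at -0.02 and -0.04, AT2 transcription factors at 0.21 and 0.12, and epithelial adhesion and identity at -0.03 and 0.08, with no call. Transitional epithelial genes (0.15 and -0.10), cell cycle genes (-0.33 and -0.02), senescence and p53 targets (-0.06 and 0.00), immediate early genes (-0.03 and -0.07) and heat shock genes (-0.08 and -0.11) had none either.

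The calls in the lists below were made in *Gli1 HHIPCKO*, where 122 and 82 genes were called against 5 and 2 in control, and the difference between the mice was not tested. Glucocorticoid-induced genes and metallothioneins had medians of 0.15 and 0.18, with *Zbtb16* called higher (67.9 and 23.6 CPM, 1.52 [0.95, 2.05]). The unfolded protein response list had -0.20 and -0.15, with *Pdia4* lower (10 and 818 UMIs, -1.14 [-2.21, -0.26]). NF-kB and STAT3 pathway genes had 0.18 and 0.15, with *Nfkb1*, a subunit of NF-kB, higher (65.7 and 31.4 CPM, 1.06 [0.48, 1.59]) and the adaptor *Myd88* lower (5 and 378 UMIs, -1.03 [-2.66, 0.20]). Receptors for stromal signals had 0.13 and 0.33, with *Notch2* higher (59.1 and 26.5 CPM, 1.16 [0.54, 1.72]), and histone genes 0.00 and 0.42, with *Hist1h2bc* higher (50.4 and 23.8 CPM, 1.08 [0.40, 1.68]). *Zbtb16* (0.82), *Notch2* (0.93) and *Hist1h2bc* (0.83) were under 2-fold within 4000 up to 8000 UMIs. With cells thinned before selection none of these calls remained, and *Nfkb1*, *Myd88* and *Pdia4* were at -0.15, 0.12 and 0.01. IGF pathway genes had 0.32 and 0.42 and ligands of AT2s 0.26 and 0.04 with no call, and no hedgehog pathway gene was ranked.

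Several of the largest ratios were smaller or turned among cells from 4000 up to 8000 UMIs. The noncoding RNA *Gm26917* had 443 CPM without and 164 CPM with *Lcn2* in control (1.44 [1.31, 1.56]) and 705 and 209 CPM in *Gli1 HHIPCKO* (1.75 [1.58, 1.92]), but 0.12 and -0.21 within 4000 up to 8000 UMIs. *Gm47283* went from 1.23 and 1.55 to 0.17 and 0.79, the X-linked noncoding RNA *Firre* from 1.29 and 1.26 to -0.37 and -0.29, and the protease *Adamts10* from 1.05 and 1.30 to 0.67 and -0.21. *mt-Nd6* in *Gli1 HHIPCKO* went from 1.76 to -0.88. None of these 5 genes was 2-fold higher at that depth in either mouse, though *Gm47283* in *Gli1 HHIPCKO* and *Adamts10* in control kept part of their ratio. Why was not tested. In control *Scgb1a1* went from 1.40 to 2.32 at that depth, and to -0.49 without the 3 highest cells of each group. In *Gli1 HHIPCKO*, where it was also called higher, its direction turned at that depth.

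Stromal and mural genes were also high without *Lcn2* in *Gli1 HHIPCKO*. *Vim*, an intermediate filament of stromal cells, had 98.5 CPM without and 24.8 CPM with *Lcn2* (1.99 [1.51, 2.43]), and the proteoglycan *Bgn* 85.4 and 21.7 CPM (1.98 [1.46, 2.45]); they were at 0.58 and 0.62 within 4000 up to 8000 UMIs. *Gucy1a1* (243 and 34.1 CPM, 2.83 [2.53, 3.13]) and *Sparcl1* (169 and 32.5 CPM, 2.38 [2.01, 2.72]) came to 1.09 and -0.09 there. *Gucy1a1* was thus still over 2-fold at that depth but was not ranked there, and the other 3 were under 2-fold. *Dlk1*, a membrane ligand of the Notch family, was low without *Lcn2* in control (21.5 and 54.3 CPM, -1.34 [-1.89, -0.83]), where it was ranked through the cells with *Lcn2* alone, and within 4000 up to 8000 UMIs (-1.35). In *Gli1 HHIPCKO* it was low too, though not ranked (17.5 and 59.5 CPM, -1.76 [-2.98, -0.78]).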

How the data were processed

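The authors deposited 1 matrix of raw UMI counts per library, 10999 cells and 43291709 UMIs for control and 12350 cells and 52338969 UMIs for *Gli1 HHIPCKO*, over 32285 genes. The labels name a 3′ v2 kit and Cell Ranger 3.1.0 with mm10; the methods name a 5′ kit and the file header CellRanger 6.1.0. UMIs were summed over the chosen cells of a library and scaled to CPM, with exact Poisson intervals for CPM and exact binomial intervals for shares and log2 ratios. A gene outside the rule was ranked if 10% of the cells of a group or more had a UMI of it and if both groups together had 50 or more, and called at 2-fold. Ratios against 0 used a floor of 3 counts. Doublets were not called and were removed only through the rule. Genes named are those of 22 lists, the 15 highest and 15 lowest ranked of each comparison, *Hhip*, genes the study names for AT2s, and sex-linked genes; members and lists were chosen with earlier results of these data known. Thinning used seed 1. Figures were drawn in matplotlib 3.10.9 from tables made in pandas 2.3.3, scipy 1.17.1, numpy 2.4.6 and Python 3.11.15, and the script was tested on simulated data. Effects of 16 alternatives are given at the end.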

Additional observations from a re-analysis of the deposited data

How the results depend on the processing

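No paired analysis was possible because each group holds 1 mouse. Shares of AT2-like cells at 0 *Lcn2*, 15.96% in control and 6.12% in *Gli1 HHIPCKO*, changed to 17.6% (control) with at least 3 AT2 genes, 13.9% and 4.89% with at least 5, 5.02% (*Gli1 HHIPCKO*) at 5% mitochondrial UMIs, 10.9% and 3.07% from 2000 UMIs on, 27.5% and 13.3% after thinning, 31.6% and 12.2% with 1 *Lcn2* UMI allowed, and 7.51% and 2.24% from 4000 up to 8000 UMIs, the direction kept. Genes 2-fold higher and lower in *Gli1 HHIPCKO* over control without *Lcn2* (91 and 43) became 28 lower (at least 3 AT2 genes), 65 lower (at least 5), 55 and 71 (0 collagen), 23 and 10 (thinned), 59 and 14 (at most 1 *Lcn2* UMI), 66 and 65 (total without surfactant), 155 and 94 (mean of CPM per cell), 80 lower (no cell share), 17 and 3 (at least 200 UMIs), 423 and 208 (1.5-fold), and 44 higher (4000 up to 8000). Without over with *Lcn2* in control (5 and 2): 10 higher (at least 3 AT2 genes), 12 and 10 (0 collagen), 1 lower (without the 5% deepest cells), 4 lower (from 2000), 1 and 1 (thinned), 3 higher (at most 1 *Lcn2* UMI), 4 lower (no surfactant), 139 and 8 (mean of CPM), 207 and 117 (no cell share), 155 and 42 (1.5-fold), 26 and 12 (4000 up to 8000). In *Gli1 HHIPCKO* (122 and 82): 194 lower (0 collagen), 147 lower (from 2000), 1 and 1 (thinned), 22 and 5 (at most 1 *Lcn2* UMI), 61 and 122 (no surfactant), 563 and 188 (mean of CPM), 1003 and 425 (no cell share), 744 and 319 (1.5-fold), 238 and 273 (4000 up to 8000). Directions turned, without over with *Lcn2* in *Gli1 HHIPCKO*, for *Scgb1a1* (-0.60 at 0 collagen, -0.96 from 2000, -0.48 thinned, -0.42 without cells with RNA of another type, -0.42 from 4000 up to 8000), *Firre* (-0.47, -0.51 and -0.29 from 2000, thinned and 4000 up to 8000), thinned for *Ddx18* (0.14), *Fmo2* (-0.18), *Nfkb1* (-0.15), *Meaf6* (0.25), *Pdia4* (0.013), *Leng8* (-0.0051), *Myd88* (0.12), *Mrps23* (0.0071) and *Psmb8* (0.045), with at most 1 *Lcn2* UMI for *2610028H24Rik* (0.18), and from 4000 up to 8000 for *Sparcl1* (-0.092), *Adamts10* (-0.21), *Gm26917* (-0.21) and *mt-Nd6* (-0.88). For *Gli1 HHIPCKO* over control they turned for *Vim* (-0.30 thinned, -0.087 from 4000 up to 8000), *Pdia4* (0.094 thinned), *Hbb-bt* (-0.78 without cells with RNA of another type) and *mt-Nd6* (-0.50 from 4000 up to 8000), and in control for *Firre* (-0.37 from 4000 up to 8000) and *Scgb1a1* (-0.49 without the 3 highest cells). This list does not cover every gene that was not called. *Retnla*, not called in control, turned there from 4000 up to 8000. The cause was not tested.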

Other observations

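Limits: 1 mouse per group, with sex and treatment inseparable. Cells were chosen on *Lcn2*, a gene whose count of 0 depends on depth, and the 183 *Gli1 HHIPCKO* cells without *Lcn2* hold 456737 UMIs, so low genes rest on few counts. Dissociation can induce stress genes and was not measured. The deleted gene is hardly counted in AT2s, so its state in these cells cannot be seen. Proteins, secretion and lung structure were not analysed here.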
